A study of Homo sapiens with 4 samples.

Results

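The human zinc finger gene clusters of chromosome 19 were examined for H3K9me2 (dimethylation of histone H3 at lysine 9) in K562 cells with and without CUX1. They were taken as 5 blocks of the hg19 genome defined by position, with earlier results of these data known, at chr19:19800001-24600000, chr19:36500001-38500000, chr19:44300001-45000000, chr19:52000001-54300000 and chr19:56500001-59100000, and are called the first to the fifth block in that order. The blocks span 12.4 Mb, and 5483 of the 1000000 peaks in the 4 deposited lists overlapped them, against 15674 peaks on the rest of chromosome 19. K562 is an established human myeloid leukemia line. The 2 knockout libraries came from cells given a CRISPR guide against CUX1 (gCUX1), a homeodomain transcription factor, and the 2 control libraries from cells given a guide against HPRT (gHPRT), so cells of both groups were given a guide. The labels do not say whether the cells were clones or pools, and the peak lists do not measure CUX1 itself. CUT&RUN was used, an assay in which a nuclease tethered to an antibody cuts marked chromatin loose for sequencing.

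Most human C2H2 zinc finger genes with a KRAB domain arose by tandem duplication and lie in runs on chromosome 19. Their proteins bind DNA, often in transposable elements, and recruit the corepressor TRIM28 with the methyltransferase SETDB1, which lays down H3K9me3, and the clusters themselves are known to carry that mark in many cell lines. H3K9me2 is a separate state, written mainly by EHMT1 and EHMT2 over broad silent stretches. In the RefSeq gene table (GRCh38.p14, used for names and neighbours only), 260 of the 1447 protein-coding genes on chromosome 19 had a zinc finger symbol (ZNF, ZFP, ZSCAN, ZIM, ZIK or ZKSCAN), which is 46.2% of the 563 such genes on all chromosomes. Of these, 209 lay in 18 runs of at least 5 neighbouring protein-coding genes. The longest run, from ZNF737 to ZNF681, held 27 genes and included ZNF43, ZNF208 and ZNF91, the last of which represses SVA retrotransposons. The run from ZNF565 to ZNF793 held 24 genes, the run from ZNF283 to ZNF180 held 20, and the run from ZNF772 to ZNF256 held 23. Another run of 24, from ZNF627 to ZNF791, and one of 10, from ZNF699 to ZNF846, come before these in chromosomal order and may lie outside the blocks, so the rest of the chromosome is not free of zinc finger genes. Gene positions on hg19 were not used here, so no peak or window was assigned to a gene, and that the blocks hold these runs rests on the coordinates chosen and was not checked.

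Each of the 4 lists held 250000 peaks, and they ended at different strengths, at a lowest −log10 p of 1.49 and 1.35 in knockout replicates 1 and 2 and of 1.25 and 1.27 in control replicates 1 and 2. Knockout replicate 1 stood apart, with the narrowest peaks (smallest width 263 bp, against 339 bp in knockout replicate 2 and 362 and 369 bp in the controls) and 423 Mb covered on chromosomes 1 to 22 and X, against 585 Mb in knockout replicate 2 and 693 and 679 Mb in the controls. No source used here gives the read depth, and the precision it allows is unknown. Since the labels do not call the replicates separate cultures, the spread behind each p-value may be technical.

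The first question was whether the blocks differed from the rest of the chromosome, taken as the 43.3 Mb outside them without the peak-free stretch around the centromere (24500419 to 27995499). H3K9me2 peaks were denser in the blocks in all 4 libraries. Peaks covered 19.4% of the blocks in knockout replicate 1 and 25.6% in knockout replicate 2, and 32.3% and 34.5% in control replicates 1 and 2. The rest of the chromosome was covered to 14.4% and 21.0% in the knockouts and to 21.9% and 23.3% in the controls. The excess of the blocks over the rest was 7.78 ± 3.51 percentage points (SD, n = 4 libraries), from 4.56 to 11.3 points, and was above 0 in 4 of 4 libraries (two-sided exact sign-flip permutation p = 0.125, the smallest that 4 libraries allow).

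The excess was repeated block by block. Every one of the 5 blocks was covered more densely than both stretches beside it (for the fifth, the one before it) in every one of the 4 libraries. The third block, the smallest at 0.7 Mb, was the densest in all 4 libraries, with 23.2% and 28.7% covered in the knockouts and 38.9% and 40.2% in the controls. Its neighbours, from 38500001 to 44300000 and from 45000001 to 52000000, had 15.1% and 21.3%, and 15.5% and 23.1%, in the knockouts, and 24.3% and 23.2%, and 23.5% and 24.2%, in the controls. The first block, the largest at 4.8 Mb and the one next to the centromere, was the least covered block in all 4 libraries, with 16.8% and 23.4% in the knockouts and 28.2% and 31.5% in the controls. The peak-free stretch takes up 99582 bases at its end.

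**Figure D1:**
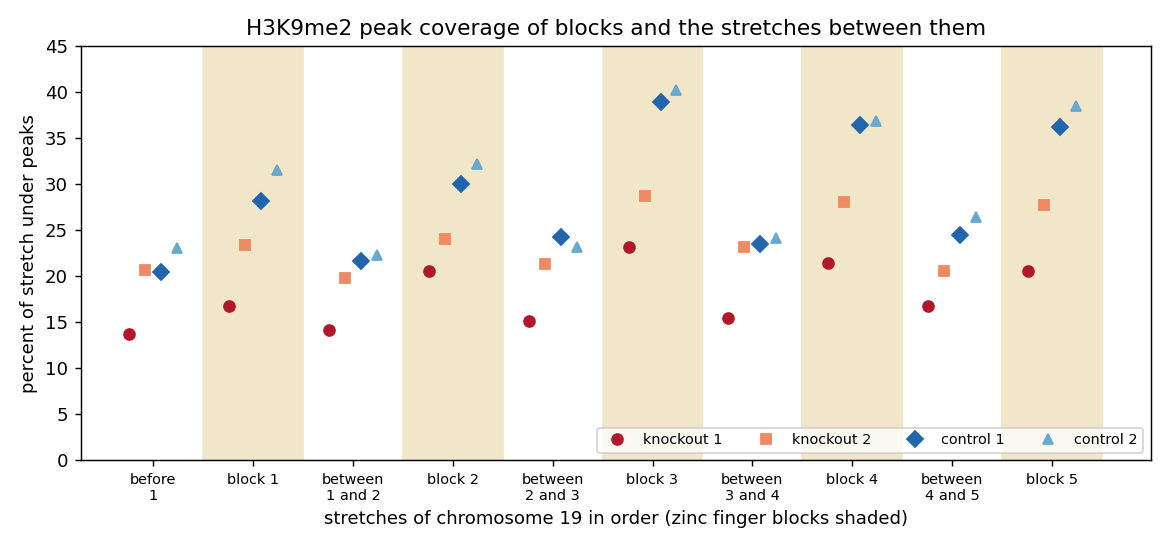
Percent of each stretch of chromosome 19 under H3K9me2 peaks, in chromosomal order, with the 5 zinc finger blocks shaded; each point is 1 library (knockout 1 and 2, control 1 and 2). In each library every block lies above its neighbouring stretches, and in every block both knockout points lie below both control points.

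Coverage was higher inside the block edges than outside them on average, with no large step at the chosen coordinates. In the 50 kb just inside, coverage averaged 21.0% and 26.3% in the knockouts and 30.3% and 30.5% in the controls, and in the 50 kb just outside 20.3% and 23.5% in the knockouts and 26.0% and 27.1% in the controls. Over the 8 edges with peaks on both sides, the 300 kb inside an edge averaged 20.8% and 28.6% in the knockouts and 33.6% and 32.8% in the controls, and the 300 kb outside averaged 17.2% and 24.01% in the knockouts and 27.3% and 27.9% in the controls. The inside was higher at 6 and 7 of 8 edges in knockout replicates 1 and 2 and at 6 of 8 in each control. The sharpest step was at 44300000, the start of the third block, in the controls, where 42.3% and 45.3% inside stood against 23.2% and 19.82% outside. The knockouts had 24.1% and 29.0% inside that edge, against 17.8% and 28.3% outside, so knockout replicate 2 showed almost no step there. At 36500000, the start of the second block, no library was higher inside, and at 56500000, the start of the fifth, 3 of the 4 libraries were lower inside, with 20.4% inside and 26.7% outside in knockout replicate 1, and 30.6% and 26.3% inside and 39.3% and 36.7% outside in the controls. Knockout replicate 2 was higher inside there, at 32.7% against 26.1% outside.

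**Figure D2:**
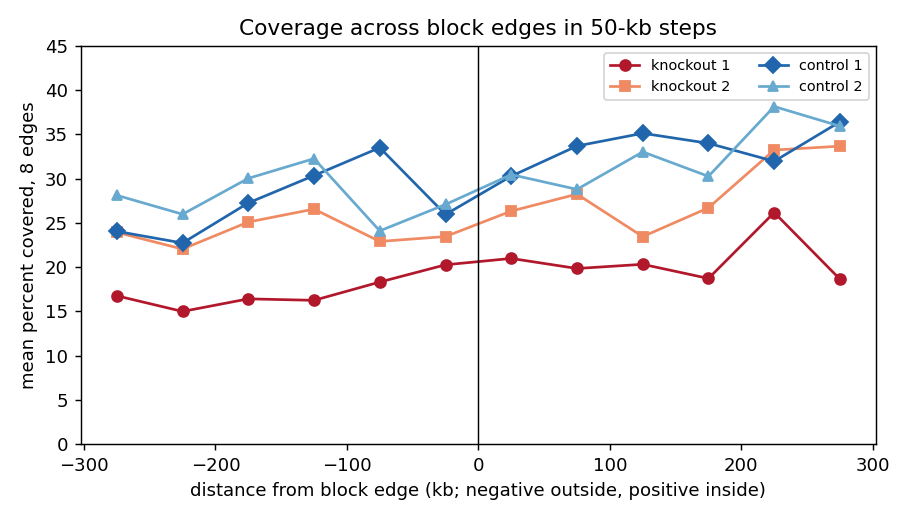
Mean percent covered in 50-kb steps from 300 kb outside to 300 kb inside the 8 block edges that have peaks on both sides; each line is 1 library. The lines swing from step to step and run higher inside than outside on average, and knockout 1 is the lowest in every step.

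The comparison of knockout with control, named in the title of the series as a reduction of H3K9me2 in CUX1-deficient cells, gave lower coverage of the blocks in the knockouts in the lists as deposited. Peaks covered 22.5% ± 4.36 of the blocks in knockout cells and 33.4% ± 1.58 in control cells (SD, n = 2 each), a difference of -10.9 points and a ratio of 0.673. Both knockout libraries lay below both controls (two-sided exact permutation p = 0.333; with 2 against 2 none smaller is possible). The same held in each of the 5 blocks, with differences of -9.76, -8.82, -13.6, -11.9 and -13.2 points from the first to the fifth (each exact permutation p = 0.333). Without knockout replicate 1 the difference in the first block was -6.46 points. The direction depended on how the lists were made comparable. With each list read to 423 Mb covered, peaks covered 19.4% and 19.3% of the blocks in the knockouts and 21.9% and 23.05% in the controls, a difference of -3.17 points with groups that did not overlap. With 1 limit of −log10 p for all lists, the lowest value that knockout replicate 1 holds, the blocks were covered to 19.4% and 16.4% in the knockouts and 15.7% and 17.9% in the controls, a difference of 1.11 points (exact permutation p = 0.667), and with 1 limit of −log10 q the difference was 2.54 points.

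In the lists as deposited the rest of chromosome 19 was lower in the knockouts by a smaller amount, with 17.7% ± 4.64 in knockout and 22.6% ± 0.946 in control cells (SD, n = 2 each), a ratio of 0.784. That difference reversed under each common reading. With 1 limit of −log10 p the rest was covered to 14.4% and 14.4% in the knockouts and to 9.50% and 11.9% in the controls. The difference was then 3.74 points, with groups that did not overlap. It was 2.97 points with 1 limit of −log10 q and 1.03 points at equal covered length, with overlapping groups in both. By stretch in the lists as deposited, the ratio of knockout to control was 0.646 to 0.716 in the 5 blocks and 0.732 to 0.809 in the 5 stretches outside them. Knockout replicate 2 was below both controls in every block. Outside the blocks its distance from the controls varied. In the stretch before the first block, the longest, it lay above control replicate 1, at 20.7% against 20.5%, and below control replicate 2. It had 23.1% against 23.5% and 24.2% from 45000001 to 52000000, and 20.5% against 24.5% and 26.4% from 54300001 to 56500000.

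The contrast between the blocks and the rest of the chromosome, read within each list, was weaker in the knockouts. Blocks were covered 1.34 and 1.22 times as densely as the rest in knockout replicates 1 and 2, and 1.47 and 1.48 times in control replicates 1 and 2. The second block alone did not show this, at 1.42 and 1.14 times in the knockouts and 1.37 and 1.38 times in the controls. Its groups overlapped under each common reading as well. In each other block both knockouts lay below both controls in the lists as deposited. On the log2 scale the ratio was 0.35 ± 0.10 in knockout and 0.56 ± 0.01 in control cells (SD, n = 2 each), a difference of -0.21 with groups that did not overlap (exact permutation p = 0.333, the smallest possible), and of -0.14 without knockout replicate 2. At equal covered length, with each list read from its strongest peak to 423 Mb, the ratios were 1.34 and 1.164 in the knockouts and 1.62 and 1.501 in the controls, a log2 difference of -0.32. The limit on −log10 p gave 1.34 and 1.14 in the knockouts and 1.66 and 1.502 in the controls (log2 difference -0.35). With the limit on −log10 q the groups overlapped, with 1.61 and 1.26 in the knockouts and 1.64 and 1.55 in the controls (log2 difference -0.16, exact permutation p = 0.667).

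The number of peaks called, listed or not, did not differ in the same way. The serial numbers in the peak names rose with position and exceeded the number of listed peaks, and were taken to count every called peak, a reading that no label or header states. By that count the blocks held 184 and 153 called peaks per Mb in the knockouts and 160 and 155 in the controls, and the rest of the chromosome 156 and 142 in the knockouts and 156 and 144 in the controls. The ratio of blocks to rest was 1.18 and 1.08 in the knockouts and 1.03 and 1.08 in the controls, a log2 difference of 0.10, opposite in sign to that of coverage and with overlapping groups (exact permutation p = 0.667). By the same reading, the share of called peaks that reached the lists stood further apart between blocks and rest in the controls. In the knockouts 58.1% and 69.0% of the called peaks in the blocks were listed, close to the 60.9% and 68.7% in the rest, while in the controls 70.2% and 75.7% were listed in the blocks and 51.3% and 62.4% in the rest. Between the groups these shares overlapped in the rest and, among the blocks, in the first. There 58.9% and 68.6% were listed in the knockouts and 63.2% and 72.7% in the controls.

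**Figure D3:**
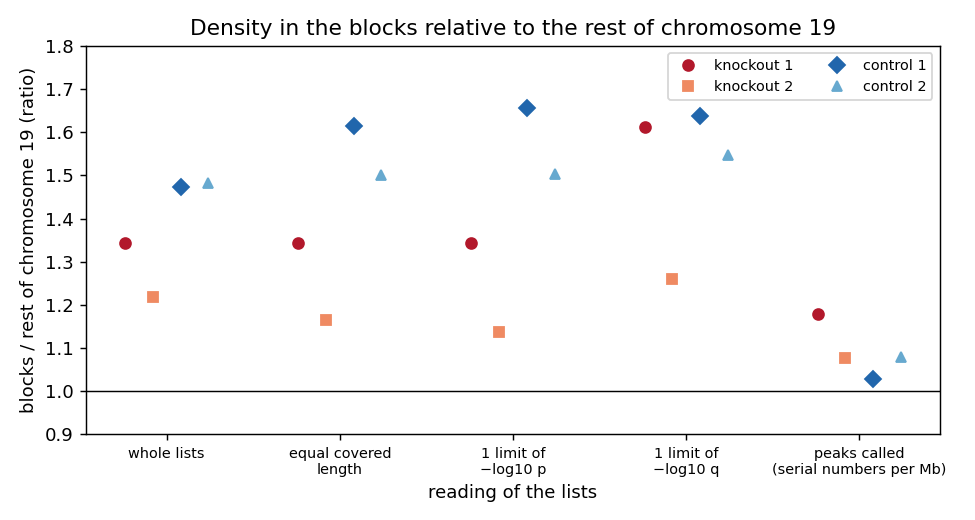
Ratio of density in the blocks to density in the rest of chromosome 19 for each library (points), for percent covered under 4 readings of the lists and for peaks called per Mb by serial number; the line marks a ratio of 1. The knockouts lie below both controls for the whole lists, at equal covered length and with 1 limit of −log10 p, but not with 1 limit of −log10 q or by serial number.

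Coverage is the product of how many peaks lie in a stretch and how wide they are, and both entered. The blocks held 107 and 106 listed peaks per Mb in the knockouts and 112 and 117 in the controls, a difference between means of -8.67 per Mb. In the rest of the chromosome the order was the other way round, with 94.9 and 97.5 per Mb in the knockouts and 79.9 and 89.6 in the controls, a difference of 11.4 per Mb. Neither pair of groups overlapped. In the blocks the sign of the density difference was the opposite under each common reading of the lists, at 15.8 per Mb at equal covered length, 26.9 with 1 limit of −log10 p and 24.9 with 1 limit of −log10 q, with groups that did not overlap. In the lists as deposited the ratio of the densities was 1.104 ± 0.0310 in knockout and 1.36 ± 0.0685 in control cells (SD, n = 2 each, exact permutation p = 0.333). Among the blocks the peak density in the lists as deposited differed most in the third, with 106 and 111 per Mb in the knockouts and 140 and 133 in the controls, and least in the first, with 103 and 96.2 in the knockouts and 97.5 and 107 in the controls, where the groups overlapped. At equal covered length the third block had 106 and 88.6 per Mb in the knockouts and 103 and 82.9 in the controls, the smallest difference of the 5 blocks.

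Peaks in the blocks were narrower in the knockouts. Their median width was 1435 and 1975 bp in knockout replicates 1 and 2 and 2468 and 2486 bp in control replicates 1 and 2, a difference between means of -772 bp or -31.2% (exact permutation p = 0.333), and of -502 bp without knockout replicate 1. In the rest of the chromosome the medians were 1210 and 1746 bp in the knockouts and 2304 and 2189 bp in the controls, a difference of -34.2%, so narrowing was not greater in the blocks by this measure. In every library the median was wider in the blocks than in the rest. The smallest peak width in the whole list also differed between libraries. Divided by it, the median in the blocks was 5.46 and 5.83 in the knockouts and 6.82 and 6.74 in the controls, a difference of -16.8%. By block, the difference in median width was largest in the fifth, at 1510 and 2086 bp in the knockouts and 2899 and 2741 bp in the controls, and was most alike between the knockout replicates in the second, at 1650 and 1666 bp against 2227 and 2359 bp in the controls.

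Wide peaks carried less of the marked sequence in the knockouts. Peaks of at least 5000 bp held 10.7% and 21.8% of the summed peak width in the blocks in the knockouts and 30.6% and 34.2% in the controls. In the rest of the chromosome they held 6.71% and 17.7% in the knockouts and 31.0% and 27.0% in the controls, so the difference was not confined to the blocks. The groups overlapped in the blocks with 1 limit of −log10 q, at 12.5% and 23.5% in the knockouts and 23.3% and 32.5% in the controls. The widest peak of any library lay in the first block in control replicate 1, from 22705822 to 22724732, and was 18911 bp wide. Over the same bases peaks covered 7.21% and 43.1% in the knockouts and 15.5% in control replicate 2, so its extent was not shared by the other control. Knockout replicate 2 had a peak of 18395 bp in the same block. In the fourth block the widest peak, 12221 bp in control replicate 2 from 53329106 to 53341326, was covered to 42.4% and 41.1% in the knockouts and to 81.4% in control replicate 1. In the second block the widest peak belonged to a knockout, at 11964 bp from 37736430 to 37748393 in knockout replicate 2, and it was covered to 50.9% in knockout replicate 1 and to 55.3% and 38.9% in the controls. The third block's widest, 13958 bp in control replicate 2 from 44515877 to 44529834, was covered to 54.4% and 57.7% in the knockouts and 28.9% in control replicate 1. The fifth block's widest, 13589 bp in control replicate 1 from 58724526 to 58738114, was covered to 38.6% and 28.1% in the knockouts and 61.2% in control replicate 2.

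**Figure D4:**
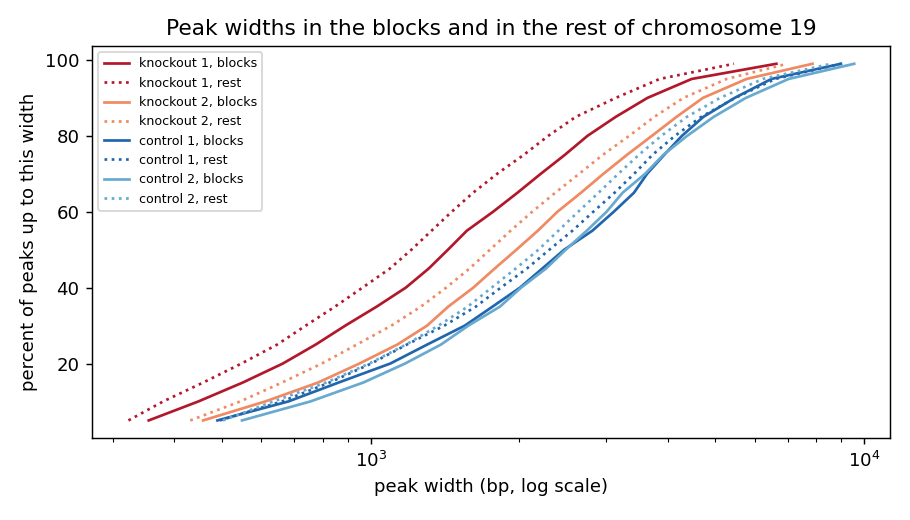
Percent of peaks up to a given width (bp, log axis) in the blocks (solid) and in the rest of chromosome 19 (dotted), 1 color per library. In each library the block curve runs to the right of the rest at the median, and both knockout block curves, with medians of 1435 and 1975 bp, lie to the left of both control block curves.

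The peaks in the blocks were weak by the caller's own measures, which are the authors' values for each peak. Their median fold enrichment was 1.96 and 1.79 in the knockouts and 1.7997 and 1.73 in the controls, close to the 1.97 and 1.81, and 1.78 and 1.74, of the rest in the same libraries. A q of 0.05 was reached by 0 of 1325 and 7 of 1309 block peaks in knockout replicates 1 and 2. In control replicates 1 and 2 it was reached by 0 of 1394 and 6 of 1455 block peaks. In the rest it was reached by 1 of 4108 and 106 of 4223 peaks in the knockouts. The controls had 4 of 3462 and 89 of 3881 there. Peaks past this threshold were more numerous in the second replicate of both groups. Most lay outside the blocks, as did most listed peaks of the chromosome, but the shares differed. In every library a smaller share of the listed peaks passed this threshold in the blocks than in the rest. The first replicates had very few such peaks. The highest −log10 q of any library in the blocks was at the start of the second, where all 4 libraries listed a peak. At this site −log10 q was 0.162 (36544800 to 36545705) and 3.80 (36544766 to 36546172) in knockout replicates 1 and 2. In control replicates 1 and 2 it was 0.417 (36543217 to 36546562) and 4.19 (36544319 to 36545990). The folds were 2.36 and 3.38 in the knockouts and 2.36 and 3.53 in the controls. Control replicate 1 had a higher −log10 q elsewhere in the blocks, 0.860 from 44989207 to 44991459.

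In windows of 50 kb, no window in the blocks passed the test. Of 243 block windows with a mean coverage of at least 1%, limma called 0 at a Benjamini-Hochberg adjusted p under 0.05 over all 54463 windows of chromosomes 1 to 22 and X, where it also called 0 (0% lower and 0% higher). At an unadjusted p under 0.05 there were 47 block windows, all 47 lower in the knockouts, which is 19.3% of them, against 10.2% of all windows lower and 0.744% higher. There were 24 such windows without knockout replicate 1, 45 without knockout replicate 2, 23 without control replicate 1 and 18 without control replicate 2, of which 1 was higher in the knockout. As shares, the lower ones made up 9.88%, 18.5%, 9.47% and 6.996% of block windows in that order, against 3.58%, 11.5%, 6.81% and 7.90% of all windows, so without control replicate 2 the blocks were below all windows. With 1 limit of −log10 p there were 1 lower and 5 higher block windows at an unadjusted p under 0.05, or 0.415% and 2.07%, against 0.679% and 6.28% of all windows. The limit on −log10 q gave 0 lower and 4 higher, or 0% and 1.65%, against 0.173% and 3.49%. In 119 block windows, or 49.0%, each knockout had less coverage than either control, against 36.6% of all windows and 29.7% of the 861 windows in the rest of the chromosome. They lay above both controls in 8 block windows, or 3.29%, against 6.44% of all windows. The median difference was -10.7 points over the block windows and -5.81 points over all windows. With 1 limit of −log10 p these medians were 0.887 and 3.44 points, both knockouts were above both controls in 49 of 241 block windows, or 20.3%, against 31.1% of all windows, and below both in 23, or 9.54%, against 7.46%. With 1 limit of −log10 q they were above in 58 of 242 block windows, or 23.97%, against 30.5%, and below in 17, or 7.02%, against 4.31%. By the medians and these shares, the blocks leaned lower in the knockouts than all windows did under each limit. At an unadjusted p under 0.05 the lower and the higher share of block windows were both smaller than over all windows. When quantile normalization had made the 4 distributions equal, both knockouts were below both controls in 22.2% of block windows, against 17.8% of all windows, and above in 12.3% against 18.1%. Neighbouring windows are not independent, and the shares are a description.

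**Figure D5:**
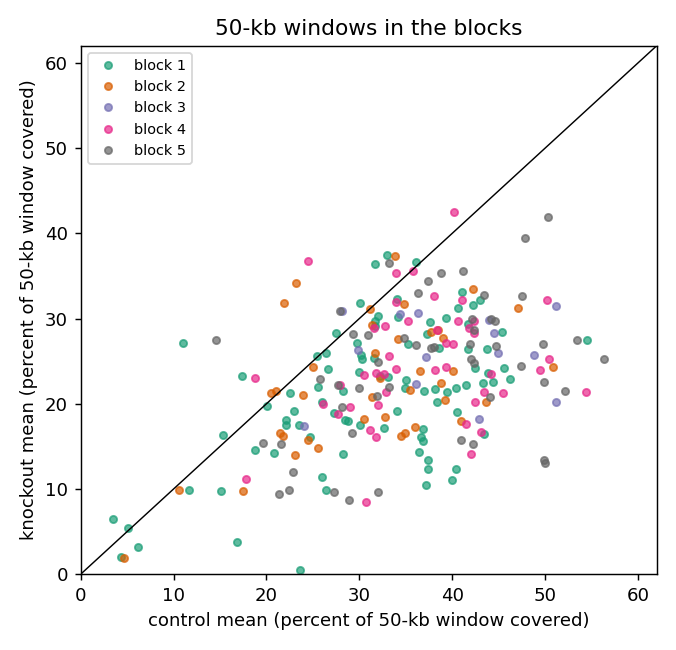
Mean percent covered of each of 243 windows of 50 kb in the blocks, with the knockout mean on the vertical and the control mean on the horizontal axis (n = 2 libraries each), colored by block; the line marks equal values. Most windows of all 5 blocks lie below the line, and the median difference is -10.7 points.

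The windows named next were picked by rule as the densest, the emptiest and the one with the smallest unadjusted p in each block, and none passed the adjusted threshold. The smallest p in the blocks was in the fifth, from 57100001 to 57150000, with 6.53% and 19.6% covered in the knockouts and 46.6% and 53.4% in the controls, the means lying -36.9 points apart (SE 10.1, adjusted p = 0.350 by limma). In the fourth block the window from 53850001 to 53900000 had 17.5% and 25.3% in the knockouts and 49.2% and 59.5% in the controls (-33.0 points, SE 11.1). In the third block the window from 44650001 to 44700000 had 17.7% and 22.8% in the knockouts and 52.6% and 49.9% in the controls (-31.0 points, SE 10.6). The choice of these windows by p fixes that their groups lie apart. The window from 22800001 to 22850000 in the first block was almost empty in the knockouts, at 1.098% and 0%, and had 27.3% and 20.1% in the controls (-23.1 points, SE 7.09). In the second block the window from 37450001 to 37500000 had 29.6% and 19.1% in the knockouts and 54.8% and 46.8% in the controls (-26.5 points, SE 11.0).

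The densest windows covered a wide range of differences. The densest of all, from 57950001 to 58000000 in the fifth block, had 38.3% and 45.5% in the knockouts and 49.8% and 50.8% in the controls (-8.38 points, SE 13.6). In the fourth block the densest window, from 52050001 to 52100000, had 29.6% and 55.4% in the knockouts and 46.4% and 33.9% in the controls, and the groups overlapped. The others, starting at 23200001, 36950001 and 44550001, averaged 41.0%, 39.2% and 41.3% over the 4 libraries, with both knockouts below both controls in each and differences of -27.0, -15.8 and -19.8 points. Among the sparsest windows, 3 in the first block held no peak in any library, from 20550001 to 20600000, from 20650001 to 20700000 and from 24550001 to 24600000, the last inside the peak-free stretch. The second block also had a gap, from 37750001 to 37800000, with 0% and 3.81% in the knockouts and 0.118% and 9.28% in the controls, directly after its widest peak. Elsewhere the sparsest windows still held peaks in every library, such as 17.2% and 17.7% in the knockouts and 29.5% and 18.7% in the controls from 44900001 to 44950000.

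Which windows were dense was only partly shared between libraries. Over the 248 block windows, Pearson's r between libraries was 0.333 for the 2 knockouts, 0.509 for the 2 controls and 0.324 to 0.426 for the 4 pairs of a knockout with a control, values given as a description, since neighbouring windows share sequence and its mappability. Over the 867 windows in the rest of the chromosome it was 0.395, 0.4998 and 0.352 to 0.465 in the same order, so the correlations in the blocks were mostly the lower ones, the pair of controls apart. At the level of bases, the Jaccard index (bases shared by 2 libraries over bases covered in either) was 0.174 for the knockouts and 0.290 for the controls in the blocks, and 0.151 and 0.220 in the rest. The index rises with coverage alone, and independent placement at the same coverage would give 0.124 and 0.200 in the blocks and 0.0935 and 0.127 in the rest. The index thus stood further above that level in the rest.

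Sequence under a peak in all 4 libraries made up 267 kb, or 2.15% of the blocks, against 1.38% of the rest. The product of the 4 coverages, the share that independent placement would give, was 0.552% in the blocks and 0.155% in the rest, so the observed share was 3.90 times that product in the blocks and 8.92 times in the rest. Shared sequence was most extensive in the third block, at 3.79%, and least in the first, at 1.51%. Sequence under both knockouts and neither control was 204 kb, or 1.65% of the blocks, and sequence under both controls and neither knockout was 784 kb, or 6.32%. Splitting the libraries by replicate number gave 300 kb (2.42%) for both first replicates alone and 518 kb (4.18%) for both second replicates alone. The remaining split gave 372 kb for knockout replicate 1 with control replicate 2 and 437 kb for knockout replicate 2 with control replicate 1. Ranked by size, these amounts stand in the order of the summed coverage of the pairs. The shared sequence was broken into 326 stretches with a median length of 668 bp. The longest, 3275 bp in the fourth block from 52068300 to 52071574, lay under peaks of 4452 and 3735 bp in the knockouts and of 4847 and 8949 bp in the controls. The next in that block, from 53808012 to 53811091, lay under peaks of 3393 and 3522 bp in the knockouts and of 8201 and 3972 bp in the controls.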

How the data were processed

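The submitters' processing notes name hg19, MACS2 2.1.0, deepTools 3.5.1, BWA 0.7.17 and SAMtools 1.16.1, without settings. The authors deposited 1 broad peak list per library, not pooled, sorted by −log10 p. Each deposited peak has a score (10 times its −log10 p, not used), a fold enrichment (a ratio to local background) and its p-value and q-value on the −log10 scale. Peak names carry unexplained tags, "cux1kd" in the knockouts and "sub" with a number in control replicate 1, and "knockout" follows the labels. Groups and replicate numbers came from the titles.

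Coverage is bases under at least 1 peak. Percent covered per 50-kb window went into limma 3.58.1 under R 4.3.3, with a trended prior, where the mean reached 1%, without a replicate block. The fit was tested on simulated data. The limits common to all lists were a −log10 p of 1.49 and a −log10 q of 0.0335, the median of all peaks. The named windows followed a rule (densest, sparsest and smallest p per block, with any past the threshold), also naming each block's widest peak. Blocks, lists and tests were chosen with earlier results of these data known. The strongest site, the edges and the sequence under all 4 libraries were chosen after values were seen. Gene bodies were not tested, since the gene table used is on GRCh38.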

Additional observations from a re-analysis of the deposited data

How the results depend on the processing

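With 1 limit of −log10 p, the knockout minus control difference reversed for the 5 blocks together (1.11 points) and for the first (1.77), the second (3.32) and the fifth block (0.129), and with 1 limit of −log10 q for all together (2.54) and for the first to the fifth (2.83, 3.07, 3.36, 3.09 and 0.897). At equal covered length only the second block reversed (0.489). The log2 ratio of blocks to rest reversed only by serial number (0.098), a measure added after the data were seen. The cause was not tested. Median width and the excess of the blocks over the rest kept their sign in every setting run. Leaving out 1 library gave -14.0 to -7.85 points for all blocks, -0.28 to -0.14 for the log2 ratio (-0.14 without knockout replicate 2) and -1042 to -502 bp for median width (-502 without knockout replicate 1). Without knockout replicate 1 the first block gave -6.46 points. Leaving out 1 library gave 6.63 to 8.86 points for the excess, and -13.1 to -6.46, -10.6 to -7.10, -16.4 to -10.8, -15.2 to -8.52 and -16.8 to -9.62 points for the first to the fifth block.

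Same-numbered deviations of the libraries were nearly uncorrelated (r = 0.0351 over 54463 windows). A low correlation cannot decide whether same-numbered libraries were made together. With the replicate block limma called 0 block windows, with 44 at an unadjusted p under 0.05, all lower (18.1%, against 10.3% of all windows lower and 0.821% higher), and it called 0 block windows in each other setting run. With windows of 100 kb it called 27 of 27554 over all chromosomes, all lower in the knockouts, and 0 of 122 in the blocks.

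Differences of named windows changed sign in 19 of 151 recomputations, none past the threshold. By start, with the limit on −log10 p these were 13.6 (23200001), 19.9 (36950001), 1.12 (44550001), 0.793 (54100001), 1.36 (53850001) and 1.68 points (57950001). With the limit on −log10 q they were 13.8 (36950001), 6.45 (44550001), 1.72 (53850001) and 9.19 (57950001). At equal covered length they were 4.49 (23200001), 12.1 (36950001) and 1.77 (54100001), and after quantile normalization 1.18 (44900001) and 2.99 (57950001). Leaving out 1 library gave -7.37 to 1.79 (37750001), -10.6 to 15.2 (52050001) and -14.6 to 1.26 points (54100001). Depth is unknown, and 2 libraries a group cannot pass 0.05 in an exact test.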
